A study of Mus musculus with 4 samples.

Results

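The genes described here encode the extracellular layer of Wnt signalling: the Wnt ligands, their Frizzled receptors, and the secreted inhibitors of the Sfrp and Dkk families. They were all protein-coding mouse genes in RefSeq whose symbol is Wnt, Fzd, Sfrp or Dkk followed by a number and an optional letter, which gave 37 genes: 19 Wnt, 10 Fzd, 4 Sfrp and 4 Dkk genes. Regions were taken from a table of 16584 DNase-seq islands, stretches of DNA with clustered DNase I cuts. An island was given to the gene whose end (of either kind) was nearest, within 50 kb, and 25 islands fell to a Wnt, Fzd or Dkk gene in this way. The islands come from lymphoid tissue inducer (LTi) cells, innate lymphoid cells that start the formation of lymph nodes and Peyer's patches. Cells were sorted from Peyer's patches of C57BL/6 mice as live and CD127+ CCR6+, lacking lineage markers, KLRG1, NK1.1 and NKp46, with 300 cells per library. The groups are 2 libraries of Tcf7+/+ mice (Ctrl) and 2 libraries of mice in which Cre acts on a floxed Tcf7 (Tcf7-KO). Tcf7 encodes TCF-1, a transcription factor. The labels used here give neither the ages nor whether a library pools mice.

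The table gives 1 read count per island for a peak side and 1 for a control side. Neither is tied to a library or a genotype by any label or header, so what follows describes open regions and both of their read counts, and Tcf7-KO was not compared with Ctrl. The fold of an island is its peak-side reads over its control-side reads multiplied by 0.345, the factor behind every fold of the table. Each fold is followed by its exact (Clopper-Pearson) 95% counting interval, which holds counting error only, since no replicate values were used and reads are not independent molecules. An island counts as called where the authors' deposited table has an FDR under 0.05. In a sorted population, a region open in a few cells and one slightly open in many cannot be told apart.

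Wnt proteins are lipid-modified ligands that bind the cysteine-rich domain of Frizzled receptors, usually together with the coreceptors Lrp5 or Lrp6. In the canonical branch this stabilises beta-catenin, which enters the nucleus and works through TCF/LEF factors such as TCF-1, while other ligands act without beta-catenin on cell polarity and calcium. Sfrp proteins carry a Frizzled-like domain and bind Wnt proteins outside the cell, and Dkk proteins block the coreceptors. In the gut, Wnt ligands and inhibitors are known mainly as products of stromal and epithelial cells.

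Promoter sequences are shown for their CpG content, which ranged widely among these genes with and without an island. Each line holds the 250 bases upstream of a listed start site (RefSeq, GRCm38.p6), 5′ to 3′ on the gene's strand, with every CpG dinucleotide in capitals. All 7 lie outside every gene record. Islands cover the first 4, at Fzd5 (chr1:64737751-64738000, minus strand), Fzd7 (chr1:59481897-59482146, plus strand), Wnt1 (chr15:98789607-98789856, plus strand) and Fzd1 (chr5:4758217-4758466, minus strand).
Fzd5: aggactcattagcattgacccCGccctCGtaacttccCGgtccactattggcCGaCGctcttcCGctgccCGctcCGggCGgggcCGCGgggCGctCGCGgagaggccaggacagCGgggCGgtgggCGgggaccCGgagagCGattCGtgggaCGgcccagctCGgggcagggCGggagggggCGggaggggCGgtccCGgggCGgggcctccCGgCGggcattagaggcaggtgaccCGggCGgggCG
Fzd7: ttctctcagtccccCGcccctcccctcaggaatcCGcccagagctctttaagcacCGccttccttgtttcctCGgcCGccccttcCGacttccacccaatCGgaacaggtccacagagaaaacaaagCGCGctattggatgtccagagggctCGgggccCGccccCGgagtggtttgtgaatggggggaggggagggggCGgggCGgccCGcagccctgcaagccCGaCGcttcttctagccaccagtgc
Wnt1: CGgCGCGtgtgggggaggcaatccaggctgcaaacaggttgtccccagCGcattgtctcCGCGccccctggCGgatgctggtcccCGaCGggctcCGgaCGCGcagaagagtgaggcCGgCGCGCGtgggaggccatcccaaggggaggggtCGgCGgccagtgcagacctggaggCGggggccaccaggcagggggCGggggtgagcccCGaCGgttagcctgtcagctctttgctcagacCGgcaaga
Fzd1: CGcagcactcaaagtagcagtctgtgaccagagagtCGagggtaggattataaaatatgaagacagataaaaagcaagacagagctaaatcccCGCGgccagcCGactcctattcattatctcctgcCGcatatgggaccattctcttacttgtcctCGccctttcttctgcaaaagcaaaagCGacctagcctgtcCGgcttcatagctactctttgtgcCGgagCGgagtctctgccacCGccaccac
No island lies over those of Fzd9 (chr5:135251048-135251297, minus strand), Wnt4 (chr4:137277385-137277634, plus strand) and Dkk1 (chr19:30549497-30549746, minus strand), which were chosen after their values were seen, the first pair for many CpG dinucleotides and Dkk1 for few.
Fzd9: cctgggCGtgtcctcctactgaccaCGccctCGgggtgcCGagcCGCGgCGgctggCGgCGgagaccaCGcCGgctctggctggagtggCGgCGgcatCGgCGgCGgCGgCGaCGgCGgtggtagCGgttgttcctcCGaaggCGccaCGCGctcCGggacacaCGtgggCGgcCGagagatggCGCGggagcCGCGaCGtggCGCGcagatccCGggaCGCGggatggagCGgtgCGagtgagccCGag
Wnt4: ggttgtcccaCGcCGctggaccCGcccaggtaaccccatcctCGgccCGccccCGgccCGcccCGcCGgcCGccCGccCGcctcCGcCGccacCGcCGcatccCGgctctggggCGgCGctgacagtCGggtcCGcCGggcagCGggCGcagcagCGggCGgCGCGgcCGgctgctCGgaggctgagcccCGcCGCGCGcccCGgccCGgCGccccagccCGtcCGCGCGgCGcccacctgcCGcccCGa
Dkk1: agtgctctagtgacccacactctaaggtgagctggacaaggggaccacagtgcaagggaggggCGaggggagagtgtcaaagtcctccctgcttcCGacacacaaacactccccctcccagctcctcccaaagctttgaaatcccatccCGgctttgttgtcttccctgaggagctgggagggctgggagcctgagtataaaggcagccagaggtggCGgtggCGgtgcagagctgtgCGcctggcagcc
The covered sequences hold 32, 17, 23 and 12 CpG dinucleotides, in the order printed. The Fzd9, Wnt4 and Dkk1 sequences, without an island, hold 42, 44 and 6. Over all 8 such upstream sequences of these genes without an island, the count ran from 5 (Wnt8b) to 44 (Wnt4), with a median of 36.5.

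Islands were present at most Frizzled genes, at part of the Wnt genes, at one Dkk gene and at no Sfrp gene. At least 1 island was assigned to 7 of 10 Fzd genes, 8 of 19 Wnt genes, 1 of 4 Dkk genes and 0 of 4 Sfrp genes. Together this is 16 of 37 genes (43.2%), beside 53.9% of all 21887 protein-coding genes outside mitochondrial DNA. Gene-end islands, those at most 1 kb from such an end, were assigned to 6 Fzd, 7 Wnt and 1 Dkk genes, 14 of 37 (37.8%), beside 46.1% of all. These shares are descriptions of few genes and were not tested against each other. The lowest peak-side count of any island in the table is 8 reads, so the lack of one does not show closed chromatin.

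Across the 25 islands, the peak side held 460 reads and the control side 658. Per island, the median was 15 peak-side reads (10 to 48) and 23 control-side reads (3 to 89), beside medians of 18 and 27 over all islands. More peak-side reads than the median of the table were found in 8 of the 25 islands, beside 7750 of all 16584. By fold, 16 of the 25 lay above the median of the table, beside 8245 of all. In the authors' deposited table, 22 of the 25 were called, 88.0% beside 82.3% of all islands, which is near the background. The 3 that were not called lay at Fzd4, Wnt5b and Wnt7b. The counting interval of the fold lay above 1 for 14 of the 25 islands and reached 1 or below for the other 11.

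**Figure D1:**
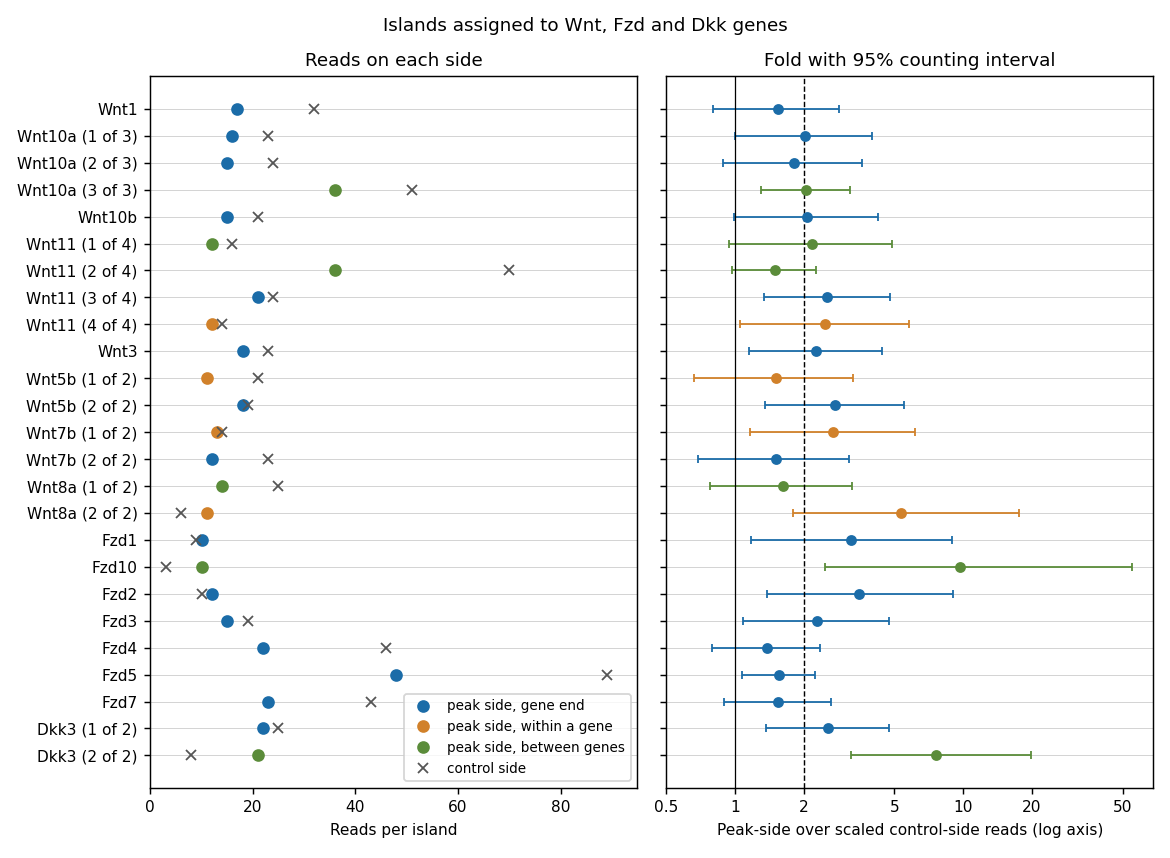
Peak-side reads (circles) and control-side reads (crosses) of the 25 islands (left), and the fold of peak-side over scaled control-side reads with its 95% counting interval on a log axis (right). The solid line marks a fold of 1 and the dashed line the median fold of all islands, 2.01. Blue marks gene ends, orange places within a gene and green places between genes. The Fzd10 island and the second Dkk3 island have the largest folds, 9.67 and 7.61, and the Fzd5 island has the most reads, 48 and 89.

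Frizzled genes, which encode 7-pass receptors, each carried exactly 1 island where they carried any, and 6 of the 7 islands covered a gene end. The island with the most reads of all 25 lay at Fzd5, a receptor of the intestinal epithelium (chromosome 1, 64735801 to 64740600). It had 48 peak-side and 89 control-side reads, a fold of 1.56 (1.08 to 2.25), was 4800 bp wide and ran from 2850 bases upstream to 1949 bases downstream of the start site. At Fzd7, known from intestinal stem cells, an island of 23 and 43 reads (chromosome 1, 59481201 to 59484000) had a fold of 1.55 (0.892 to 2.63). Both were called in the authors' deposited table, although the interval of the Fzd7 fold reaches below 1.

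Fzd4, which also serves as the receptor for norrin, had an island of 22 and 46 reads over its start site (chromosome 7, 89402201 to 89405600). Its fold of 1.39 (0.795 to 2.35) was the smallest of the 25, and it was not called in the authors' deposited table. It also covers an end of the overlapping gene Tmem135, so its reads cannot be given to one gene.

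The islands at Fzd1, Fzd2 and Fzd3 were small in reads. At Fzd1 (chromosome 5, 4758001 to 4759600) there were 10 peak-side and 9 control-side reads, a fold of 3.22 (1.18 to 8.96). At Fzd2 (chromosome 11, 102604401 to 102606200) there were 12 and 10 reads, a fold of 3.48 (1.38 to 8.99). Fzd3, a receptor of axon guidance and planar cell polarity, had 15 and 19 reads over the end of its gene (chromosome 14, 65262001 to 65263000) and a fold of 2.29 (1.08 to 4.76). The intervals of these 3 folds overlap each other and those of Fzd5 and Fzd7, so these 5 receptor genes were not told apart by fold.

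Fzd10 differed in place, since its island lay outside the gene, 1306 bases upstream of the start site (chromosome 5, 128599001 to 128599800). It had 10 peak-side and 3 control-side reads, and its fold of 9.67 (2.49 to 54.7) was the largest of the 25, on the fewest control-side reads. Its interval lies above those of Fzd4 and Fzd5 and overlaps those of Fzd1, Fzd2, Fzd3 and Fzd7. The Fzd10 promoter itself held no island. Fzd6, Fzd8 and Fzd9 had no island, and the nearest island of any gene lay 74.0, 233 and 60.7 kb from them.

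**Figure D2:**
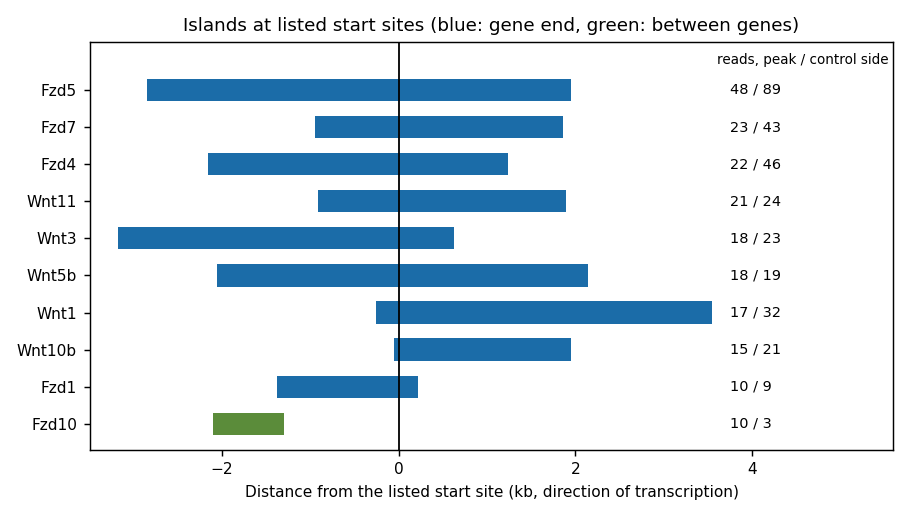
Extent of the islands at the 10 members that have both an assigned island and a listed start site, in kb from that site in the direction of transcription, ordered by peak-side reads. The numbers on the right are peak-side and control-side reads. Islands cross the start site in 9 of the 10, and the Fzd10 island (green) ends 1306 bases upstream of it.

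The Wnt ligand genes with islands had 1 to 4 each, 16 in all, of which 8 lay at a gene end, 4 within a gene and 4 between genes. Wnt11, a ligand of the branch that works without beta-catenin, had 4 islands with 81 and 124 reads in sum and a pooled fold of 1.89 (1.41 to 2.53). One covered its start site (chromosome 7, 98834201 to 98837000) with 21 and 24 reads, a fold of 2.54 (1.34 to 4.76). Another lay within the gene, 645 bases upstream of a second listed start site (98837601 to 98838200), with 12 and 14 reads, a fold of 2.49 (1.05 to 5.79). The last pair lay 17312 and 29312 bases upstream of the first start site. The nearer of these (98813601 to 98817800) had 36 and 70 reads, a fold of 1.49 (0.969 to 2.26), and the farther (98805001 to 98805800) had 12 and 16 reads, a fold of 2.18 (0.939 to 4.90). All 4 were called in the authors' deposited table, and their intervals overlap.

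Wnt5b, a further ligand of that branch, had an island over its outermost listed start site (chromosome 6, 119542201 to 119546400) with 18 and 19 reads, a fold of 2.75 (1.36 to 5.53). It also covers an end of the gene model Gm52875. A second island deep in the gene (119444001 to 119444400) had 11 and 21 reads, a fold of 1.52 (0.661 to 3.30), and was not called in the authors' deposited table. The Wnt5b record holds 2 more islands that were nearest to the ends of Fbxl14, a gene that lies inside it. Its close relative Wnt5a had no island, and the nearest in the table lay 941 kb away, the longest such distance of the 37 genes.

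Wnt7b, an epithelial ligand in several organs, had an island of 13 and 14 reads within the gene (chromosome 15, 85574601 to 85575600), with a fold of 2.69 (1.17 to 6.18). Another lay 580 bases outside the gene (85582401 to 85583800) with 12 and 23 reads, a fold of 1.51 (0.686 to 3.17), and was not called in the authors' deposited table. Wnt7a had no island. Wnt8a, known from the early embryo, had no gene-end island, but an island within the gene (chromosome 18, 34544601 to 34546600) had 11 and 6 reads, a fold of 5.32 (1.80 to 17.5). A narrow island 3727 bases outside it (34538201 to 34538600) had 14 and 25 reads, a fold of 1.62 (0.780 to 3.25). Of the 25 islands, 5 had more peak-side than unscaled control-side reads, and the Wnt8a island within the gene was the only one of them at a ligand gene. Over all islands that share was 17.0%.

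Several Wnt genes sit in linked pairs whose arrangement is old in evolution, and both, one or neither gene of a pair had islands. Wnt1 and Wnt10b, both ligands of the beta-catenin branch, lie 11.7 kb apart on chromosome 15, and each had an island over its start site. The Wnt1 island (98789601 to 98793400) spanned nearly the whole gene, with 17 and 32 reads, a fold of 1.54 (0.802 to 2.86). The Wnt10b island (98776201 to 98778200) reached only 50 bases upstream of the start site, with 15 and 21 reads, a fold of 2.07 (0.993 to 4.22). Wnt10a and Wnt6 lie 6.70 kb apart on chromosome 1, and all 3 islands of this pair were assigned to Wnt10a.

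The Wnt10a islands covered both ends of the gene and a place beyond it. The one over the lower-coordinate end (74791401 to 74795600) had 16 and 23 reads, a fold of 2.02 (0.996 to 3.99). The one over the other end (74803001 to 74805200) had 15 and 24 reads, a fold of 1.81 (0.884 to 3.60). The third, 2225 bases beyond that end (74806401 to 74809800), had 36 and 51 reads, a fold of 2.05 (1.30 to 3.20). The pooled fold was 1.98 (1.43 to 2.73), and all 3 were called in the authors' deposited table.

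Wnt3 and Wnt9b overlap by 1098 bases on chromosome 11. An island of 18 and 23 reads covered the Wnt3 start site (103771001 to 103774800), with a fold of 2.27 (1.15 to 4.40). The whole island also lies inside the Wnt9b record, whose end at 103775272 is within 1 kb of it. Since the island covers the end of Wnt3, the nearest-end rule gave it to Wnt3 alone. Wnt3a and Wnt9a, 16.1 kb apart on the same chromosome, had no island, with the nearest one 17.2 and 76.0 kb away. Of the 4 pairs, both genes had an assigned island in 1, only one gene in 2, and neither gene in 1. For Wnt3 and Wnt9b this rests on the nearest-end rule.

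**Figure D3:**
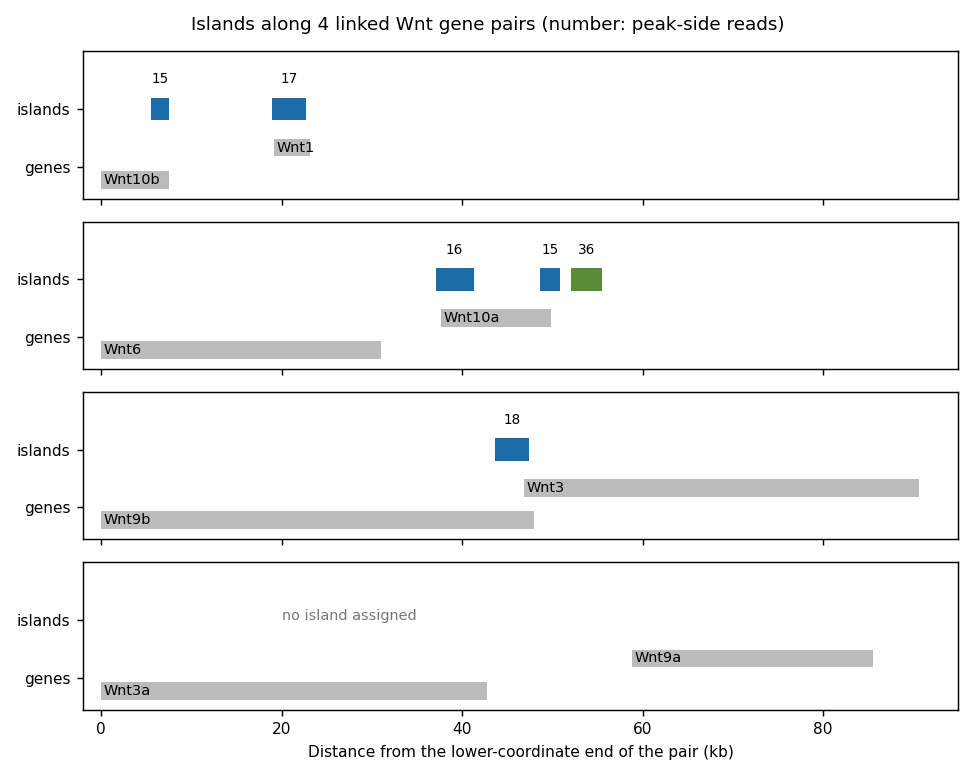
Map of the 4 linked Wnt pairs, with gene records as grey bars and assigned islands above them (blue at a gene end, green between genes), in kb from the lower-coordinate end of each pair. The numbers are peak-side reads. Wnt1 and Wnt10b each have an island, the 3 islands of the second pair belong to Wnt10a, the single island of the third crosses the start of Wnt3, and Wnt3a and Wnt9a have none.

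Of the 8 Sfrp and Dkk genes, only Dkk3 had islands. It encodes a divergent Dickkopf protein that is not a typical blocker of the Wnt coreceptors. The island over the end of the gene (chromosome 7, 112157401 to 112161400) had 22 and 25 reads, a fold of 2.55 (1.37 to 4.72). The other, 2719 bases outside the gene (112162201 to 112164000), had 21 and 8 reads, a fold of 7.61 (3.24 to 19.9). Its fold exceeded 98.7% of all islands, while its peak-side reads exceeded 59.3%. Both were called in the authors' deposited table. Dkk1, Dkk2 and Dkk4 had none, with the nearest island 419, 441 and 25.0 kb away, and neither did Sfrp1, Sfrp2, Sfrp4 or Sfrp5 (154, 265, 227 and 26.0 kb).

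The 21 genes without an assigned island lay 0 to 941 kb from the nearest island of the table. The island given to Wnt3 overlaps Wnt9b, and Wnt6 was 6.08 kb from one given to Wnt10a. The assignment rule itself favours long distances here. Those of other genes without an island are not given, so these values do not set the members apart. Their median distance was 74.0 kb, 14 of the 21 had no island within 50 kb, and for 7 the nearest was over 200 kb away. These 7 were Dkk1, Dkk2, Fzd8, Sfrp2, Sfrp4, Wnt2 (290 kb) and Wnt5a. The Wnt genes without an island were Wnt2, Wnt2b, Wnt3a, Wnt4, Wnt5a, Wnt6, Wnt7a, Wnt8b, Wnt9a, Wnt9b and Wnt16. Wnt2b, known as a stromal Wnt of the gut, was 79.4 kb from the nearest island.

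CpG-rich promoters are often open in many cell types, and most listed promoters of these genes were CpG-rich, among them many without an island. RefSeq promoter windows, from 250 bases upstream to 50 downstream of a start site, were listed for 25 of the 37 genes, 28 windows in all. The ratio of observed to expected CpG had a median of 0.754 in the 9 windows with an island and 0.753 in the 19 without. Over all 21263 listed windows of protein-coding genes, the medians were 0.808 with and 0.262 without an island. Counting as CpG-rich a ratio of at least 0.6 with at least 50% GC, 21 of the 28 windows (75.0%) were CpG-rich, beside 45.1% of all.

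Of these 21 CpG-rich windows, 8 held an island (38.1%), beside 79.0% of the 9600 CpG-rich windows of all protein-coding genes. Among 30 other genes of Wnt signalling, named further on, 5 of 10 CpG-rich windows held one, also a share below that of all genes. The 8 were those of Fzd1, Fzd4, Fzd5, Fzd7, Wnt1, Wnt3, the outermost of Wnt5b and the first of Wnt11. Among the 13 without were Fzd9, with 53 CpG dinucleotides and a ratio of 1.18, Wnt9a (58 and 1.12), Wnt4 (51 and 0.977) and Wnt3a (45 and 0.863). Sfrp2 and Sfrp5, at 0.682 and 0.622, were also among them. GC content was higher in the members' CpG-rich windows (median 72.7%) than in those of all genes (65.0%). With at least 70% GC, 5 of 14 held an island (35.7%), beside 72.9% of 2647 in all genes. These counts were not tested.

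**Figure D4:**
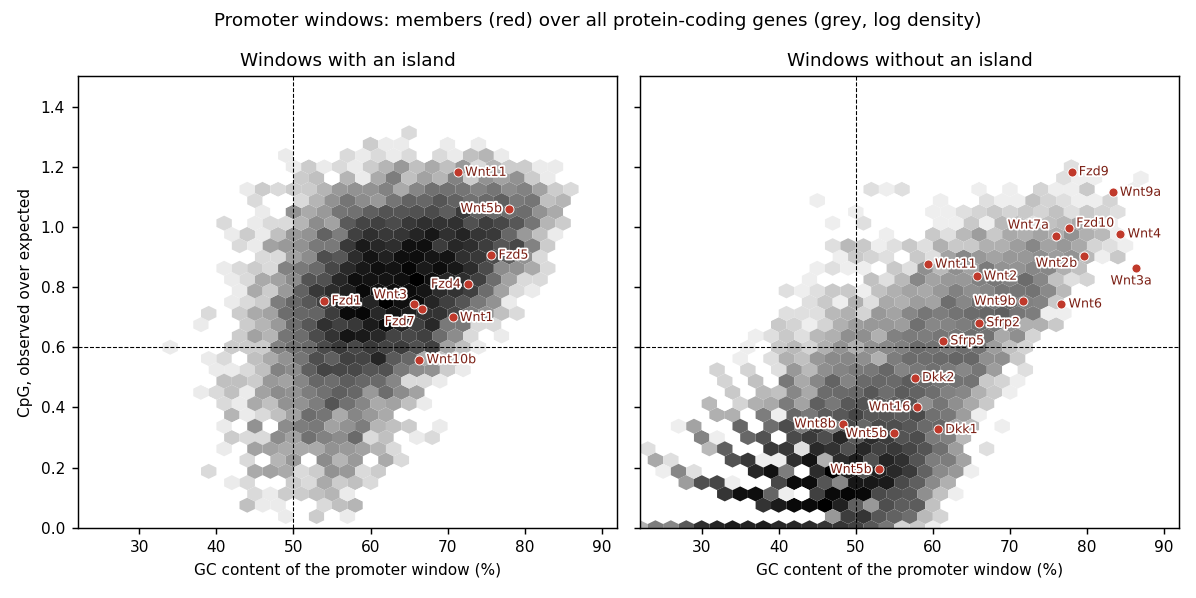
GC content (%) and observed over expected CpG of promoter windows with an island (left) and without (right). Red points are the 28 windows of Wnt, Fzd, Sfrp and Dkk genes, grey cells the density of all 21263 windows on a log scale, and dashed lines the limits of 50% GC and a ratio of 0.6. Windows outside the axes are not drawn. Of the 19 red points on the right, 13 lie in the upper corner that most windows with an island occupy.

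The letters CTTTGA, the core that TCF/LEF factors bind, were searched on both strands of the windows. They occurred in 4 of the 28 windows (14.3%), beside 14.4% of all windows. The 4 were those of Fzd1, Dkk1, the first of Wnt11 and the most downstream of Wnt5b. The longer CTTTGAT, which contains the former, occurred in 2 of the 28 (7.14%, beside 3.22% of all), at Wnt11 and Wnt5b. Islands lay over the Fzd1 and Wnt11 windows and not over those of Dkk1 and Wnt5b. A match is a description of letters and not a bound site.

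By place, 15 of the 25 islands lay at a gene end, 4 elsewhere within a gene and 6 between genes (60.0%, 16.0% and 24.0%), beside 55.7%, 24.3% and 20.0% of all islands. The gene-end islands had lower median reads than gene-end islands at large. Their median was 17 peak-side and 23 control-side reads, beside 23 and 37 over all gene-end islands, and 13 of the 15 were below that peak-side median. Their folds ran from 1.39 to 3.48 with a median of 2.07, and those of the other 10 islands from 1.49 to 9.67 with a median of 2.33. Over all islands the medians were 1.86 at gene ends and 2.32 elsewhere.

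Pooled over the 25 islands, the fold was 2.03 (1.80 to 2.29), beside 1.91 (1.90 to 1.92) over all islands. It was 1.98 (1.69 to 2.31) for the Wnt, 1.85 (1.49 to 2.30) for the Fzd and 3.78 (2.35 to 6.14) for the Dkk3 islands. The Wnt and Fzd intervals overlap, and both hold the value of all islands. The level of every fold rests on the factor of 0.345. With the control side scaled by the reads in all islands, 3 of the 25 passed an FDR of 0.05, beside 9.19% of all, and the same 3 passed with the median ratio as factor (6.61% of all). They were the islands of Fzd10, Dkk3 outside the gene and Wnt8a within the gene. Of the 25 islands, 17 had an FDR under 0.01 in the authors' deposited table (64.2% of all), and 16 had an FDR under 0.05 with a fold over 2 (50.4% of all).

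A list of 30 other genes of Wnt signalling, from ligand secretion and secreted modulators to further receptors, had islands at 17 (56.7%), near the share of all genes. It includes Smo, a Frizzled-class receptor that transduces Hedgehog signals and had the most reads of the list (104 and 238). Without Smo the count was 16 of 29 (55.2%). Neither Porcn, the enzyme that adds the lipid to Wnt proteins, nor Notum, which removes it, had an island. Wls, which carries Wnt proteins to the cell surface, had an island of 11 and 21 reads that was not called. Of the other inhibitors and their relatives, Wif1 had 2 islands with 28 and 33 reads (2.46, 1.43 to 4.20) and Sost 2 with 31 and 52 (1.73, 1.07 to 2.75), and Dkkl1, a relative of the Dkk genes, had one with 15 and 14 (3.11, 1.40 to 6.95). Frzb, a relative of the Sfrp genes, had none, nor had Sostdc1, Cer1 or Apcdd1. The R-spondin genes Rspo1 to Rspo4, which encode ligands that strengthen Wnt signals, had none. The coreceptor genes Lrp5 and Lrp6 had 21 and 28 reads (2.18, 1.17 to 3.97) and 13 and 27 reads (1.40, 0.662 to 2.80). Kremen1, a Dkk receptor, had 3 islands with 47 and 86 reads (1.59, 1.09 to 2.29). In the authors' deposited table, 14 of the 17 genes had a called island, beside 86.0% of all genes with an island, which is near the background.

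Markers of LTi cells had islands at 14 of 15 genes, with 21 to 129 peak-side reads per gene, and Ccr6 had none. Because Wnt genes are known from other gut cells, markers of those were counted too. A list of fibroblast and stromal genes had islands at 5 of 10: Thy1, Vim, Pdgfrb, Pdgfra and Col1a1 (68, 48, 26, 15 and 14 reads). There were none at Col1a2, Col3a1, Dcn, Lum or Grem1. Thy1 and Vim, which held the most reads of this list, are not specific to fibroblast and stromal cells. Epithelial markers had them at 3 of 10 (12 to 39 reads), with none at Krt18, Krt19, Krt20, Vil1, Cdh1, Lgr5 or Olfm4. Endothelial markers had them at 2 of 5 genes, Pecam1 and Vwf (41 and 32 reads), with none at Cdh5, Kdr or Tek. T cell markers had them at 1 of 6, Cd3d (17 reads), with none at Cd3e, Cd3g, Cd4, Cd8a or Cd5. B cell markers had them at 2 of 5, Cd79b and Pax5 (18 and 22 reads). Each of these 5 genes had a called island in the authors' deposited table, beside 86.0% of all genes with an island. Over all protein-coding genes, 53.9% had an island, more than the share in each of these marker lists apart from that of LTi cells. The 16 members with islands held 10 to 81 peak-side reads per gene. The part of other cells in their islands was not tested.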

How the data were processed

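DNase-seq of 4 libraries was analysed from 1 table of islands. Bowtie2 2.4.2, SICER 2.0 and build mm10 are named, without their roles, per the submitters' processing notes. Per the file headers, the authors deposited, for each island, 2 read counts, a p-value, an FDR (q-value) and a fold change (the ratio of peak-side reads to scaled control-side reads). The counts are whole and not normalized, and the depth of each library is unknown here. The deposited folds, p-values and FDR were recomputed from the counts, with 0.25 reads in place of 0. Islands are built from 200 bp windows and printed 1-based.

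Genes and promoter windows came from RefSeq tables of GRCm38.p6, the assembly mm10 names. Windows were listed for 17492 protein-coding genes, 25 of them members, and strand was taken only from them. Where an island was equally near to 2 genes, it counted for both. All 37 members matched by symbol. Of the 31 other Wnt pathway symbols, 30 matched. Members and lists were chosen with earlier results of these data known. Every member with an island is named, and sequences are those with most reads among upstream windows that islands cover and that lie outside gene records. Python 3.11.15, pandas 2.3.3 and scipy 1.17.1 were used. Assignment, intervals and the calling of planted changes were tested on simulated data, with no limit set there on the share of false calls. Results for some marker genes are not reported here.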

Additional observations from a re-analysis of the deposited data

How the results depend on the processing

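The 16 members with an island became 17 within 100 kb (Wnt4 joined), stayed 16 within 10 kb or by nearest listed start site, were 16 by gene body or 1 kb around it (Wnt9b in, Fzd10 out), and 15 with called islands only or without ties to other genes. With at least 20 peak-side reads, 6 members and 8 islands remained: Dkk3, Fzd4, Fzd5, Fzd7, Wnt10a and Wnt11. Scaling the control side by the reads in all islands left 3 called islands in place of 22 and a pooled fold of 1.06 in place of 2.03. The median ratio left 3 and 1.01. Lower folds follow from the larger factors, 0.659 and 0.692. Under the former, which multiplies every fold by the same constant, 9 of the 25 folds were below 1. Of the 22 called islands 6 were (27.3%, beside 32.3% of all called islands): Fzd5 (0.818), Fzd7 (0.812), Wnt1 (0.806), Wnt10a at its higher-coordinate end (0.948), the upstream Wnt11 island of most reads (0.780) and Wnt8a outside the gene (0.850). With a CpG ratio of at least 0.75, 5 of 15 windows held an island in place of 8 of 21, beside 82.8% of all genes' windows and 2 of 6 among other Wnt pathway genes. The settings on ties and on the CpG ratio were chosen after seeing the data. At these depths of 10 to 48 reads, folds that differ by less than about their intervals were not told apart. No paired analysis was possible because neither read column belongs to a numbered replicate.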
